A study of Mus musculus with 12 samples.

Results

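R-loop resolving genes code for the nucleases and helicases that remove RNA:DNA hybrids, and their RNA was followed in all 12 libraries of a study of mouse embryonic fibroblasts. The set was chosen by gene symbol: Rnaseh1, Rnaseh2a, Rnaseh2b, Rnaseh2c, Aqr, Dhx9, Xrn2 and Ddx5, which are 8 of the 47517 lines of the count table. All 8 passed the filter on low counts that left 17609 genes to test. The fibroblasts came from E13.5 embryos of strain C57BL/6, were immortalised with SV40 large T antigen, and carry floxed alleles of Ssb1 and Ssb2 in every group, genes that the count table lists as Nabp2 and Nabp1. Cre-positive cells (RosaCreERT2+, with Ssb1 written Fl/F and Ssb2 Fl/Fl in the genotype label) were given 4-hydroxytamoxifen (4-OHT) for 5 days, given ethanol for 5 days, or left untreated. Cre-negative cells (Ssb1 Fl/Fl, Ssb2 Fl/Fl) were handled in the same 3 ways, which makes 6 groups of 2 libraries each, numbered 1 to 12 as in the titles. CreERT2 is a recombinase made from the Rosa26 locus that enters the nucleus when 4-OHT binds it, so the Cre-positive 4-OHT cells are the ones meant to lose Ssb1 and Ssb2. How many cell lines or embryos stand behind a group is not given, and nothing in the labels says that the libraries of a group are separate cultures, so the p-values below rest on how far the 2 libraries of a group lie apart, a spread that may be technical.

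An R-loop forms when a nascent RNA pairs with its DNA template and leaves the other DNA strand unpaired. RNase H1 and RNase H2 cut the RNA strand of such hybrids, while helicases such as Aquarius, DHX9 and DDX5 unwind RNA from DNA or from other RNA. The exonuclease XRN2 degrades RNA from its 5′ end behind RNA polymerase II and so helps to end transcription. SSB1 and SSB2, the proteins deleted here, bind single-stranded DNA.

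Libraries held 20201855 to 36367012 counts, and the Cre-positive 4-OHT library 11 was the deepest. Levels are counts scaled to library size (CPM) with trimmed-mean factors of 0.972 to 1.02, and RPKM where genes are compared with each other, which also divides by transcript length. After 4-OHT in Cre-positive cells Nabp1 stood at 3.40 and 3.96 CPM, against 14.5 and 15.9 CPM after ethanol. Nabp2 stood at 4.84 and 5.09 CPM, against 19.8 and 22.6 CPM, so both targets were low where the labels say so. Of 8 fibroblast markers 7 passed the filter. The 8 summed to 6790 to 6800 CPM after 4-OHT in Cre-positive cells, 6640 to 7120 CPM after ethanol and 7020 to 7090 CPM without treatment. Sums in Cre-negative cells were lower, at 5530 to 5810, 5150 to 5330 and 5320 to 5330 CPM in the same order. Thy1, a surface marker of many fibroblasts, averaged 0.0318 CPM over all libraries. Summed markers of epithelial, blood, endothelial and muscle cells stayed at or below 4.79 CPM in every library. Neural markers (Nes, Map2, Sox2, Tubb3 and Rbfox3) summed to 142 and 143 CPM after 4-OHT in Cre-positive cells, against 184 to 187 CPM after ethanol and 150 to 158 CPM without treatment, and their part in the results below was not tested.

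Promoters are shown for 4 members because the results divide them: Rnaseh2a, Xrn2 and Dhx9 fell in Cre-positive cells given 4-OHT, and Aqr did not pass in any comparison. Each sequence is the 250 bases before a RefSeq gene start (GRCm38.p6), printed 5′ to 3′ on the strand of the gene. Capitals mark matches, on either strand, to the CCAAT box (CCAAT), the GC box (GGGCGG), an ETS core (CCGGAAGT) or an E2F site (TTTGGCGC, TTTCGCGC, TTTCCCGC or TTTGCCGC), 4 motif kinds that were picked after the sequences had been seen.
Rnaseh2a, chr8:84966077-84966326, minus strand: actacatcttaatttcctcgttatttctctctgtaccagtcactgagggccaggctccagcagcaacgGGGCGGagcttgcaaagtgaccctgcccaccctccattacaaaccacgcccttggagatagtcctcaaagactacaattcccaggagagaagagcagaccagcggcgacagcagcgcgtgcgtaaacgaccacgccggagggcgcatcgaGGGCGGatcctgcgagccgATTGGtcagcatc
Xrn2, chr2:147012749-147012998, plus strand: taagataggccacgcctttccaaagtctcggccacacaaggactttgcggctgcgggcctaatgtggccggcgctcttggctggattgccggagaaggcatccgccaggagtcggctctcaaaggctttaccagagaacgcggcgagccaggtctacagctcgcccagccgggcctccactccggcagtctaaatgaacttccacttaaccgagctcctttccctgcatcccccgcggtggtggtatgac
Dhx9, chr1:153487661-153487910, minus strand: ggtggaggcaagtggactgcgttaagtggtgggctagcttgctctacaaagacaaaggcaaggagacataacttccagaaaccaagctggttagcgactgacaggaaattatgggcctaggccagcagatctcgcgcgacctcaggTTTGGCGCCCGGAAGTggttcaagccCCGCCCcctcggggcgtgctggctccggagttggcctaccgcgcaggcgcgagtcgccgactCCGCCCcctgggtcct
Aqr, chr2:114175340-114175589, minus strand: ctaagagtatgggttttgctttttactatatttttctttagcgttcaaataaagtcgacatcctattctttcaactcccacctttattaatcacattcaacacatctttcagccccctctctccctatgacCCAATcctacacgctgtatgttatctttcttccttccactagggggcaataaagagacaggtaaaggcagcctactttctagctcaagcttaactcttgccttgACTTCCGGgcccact

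The Rnaseh2a window held 1 CCAAT box, read as ATTGG on the printed strand, and 2 GC boxes. The Dhx9 window held 2 GC boxes and an E2F match that runs straight into an ETS core. Xrn2 had no match among these letters, and Aqr had 1 CCAAT box and 1 ETS core. Over 32851 mouse promoter windows of the same length, 33.8% held a CCAAT box, 32.7% a GC box, 2.88% the ETS core and 1.86% an E2F match. None of these motifs was found in all of the Rnaseh2a, Xrn2 and Dhx9 windows. In GENCODE M21 both Rnaseh2a and Aqr reach further upstream, to base 84969767 of chr8 and base 114187024 of chr2. Their windows therefore lie inside the annotated genes, and sequence before the outermost starts is not shown. RefSeq windows were found for 6 of the 8 members, and not for Rnaseh1 and Rnaseh2b.

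Ordered by length-scaled level, Ddx5 RNA was the most abundant and Rnaseh1 RNA the least. Mean RPKM over the 12 libraries was 165 for Ddx5, 72.3 for Xrn2 and 41.1 for Dhx9, and the ranges of these 3 over libraries did not meet. Next came Rnaseh2c at 30.1, Rnaseh2b at 26.2 and Aqr at 22.9 RPKM, whose ranges overlapped between neighbours. Rnaseh2a averaged 14.9 and Rnaseh1 11.2 RPKM, and their ranges also overlapped. The place of Rnaseh2a is uncertain, since its principal transcripts run from 1532 to 2981 bases and the longest was used. Over the 12 libraries the CPM varied most for Rnaseh2a (coefficient of variation 14.5%) and Xrn2 (14.1%) and least for Aqr (3.6%).

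**Figure D1:**
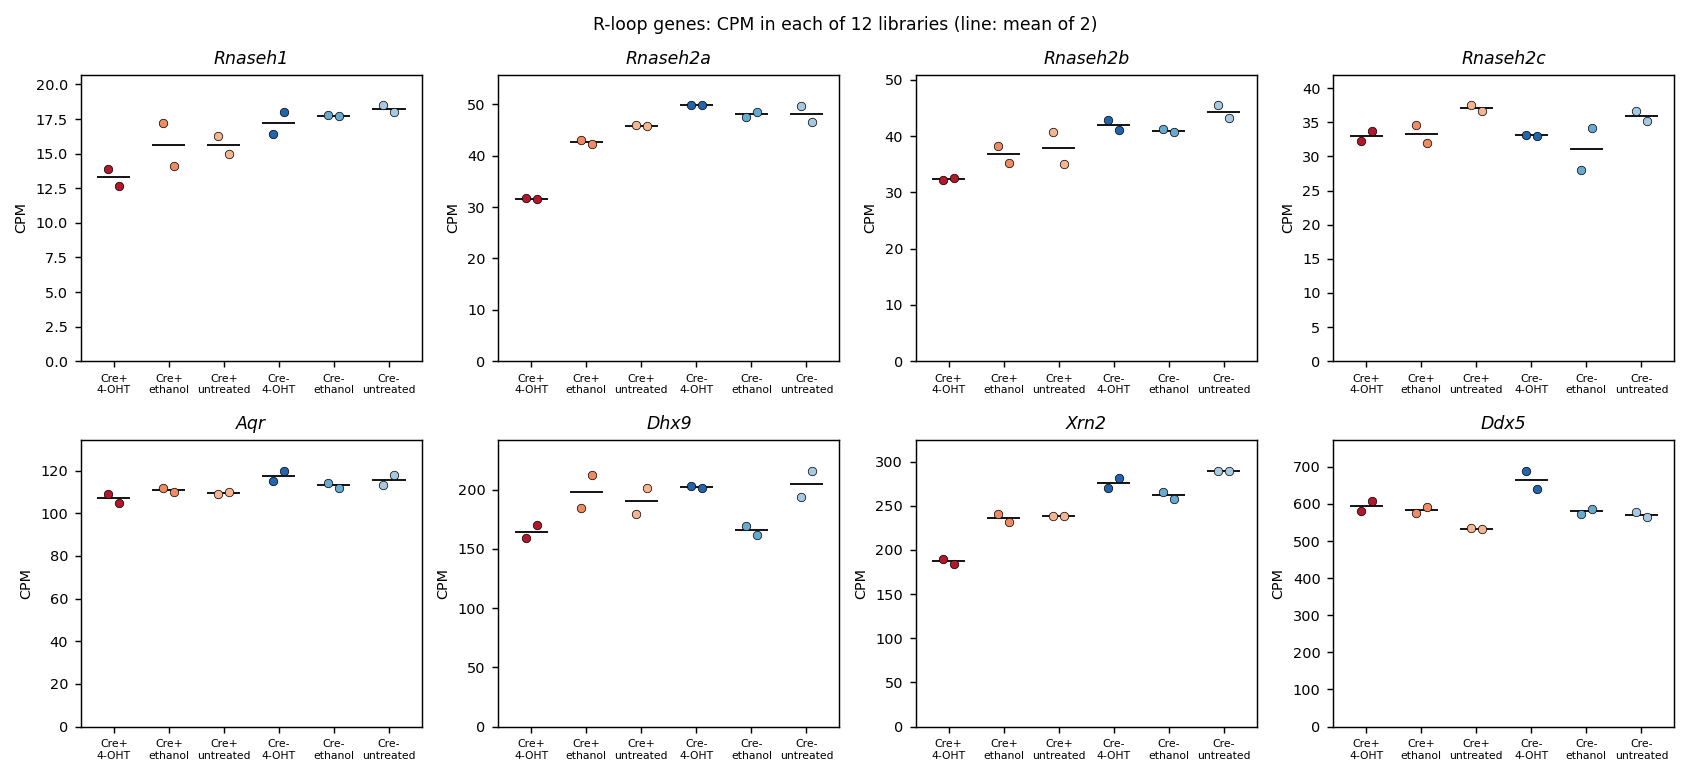
Level of each of the 8 genes in CPM (y axes, from 0) in the 6 groups (x axes), with 1 point per library and a line at the mean of 2 libraries. Rnaseh2a and Xrn2 are lowest in both Cre-positive 4-OHT libraries (31.5 to 31.8 and 184 to 190 CPM), while the points of Aqr lie between 105 and 120 CPM in all groups.

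The comparison of Cre-positive cells given 4-OHT with those given ethanol asks how R-loop gene RNA stands after deletion of Ssb1 and Ssb2. By edgeR's quasi-likelihood test with Benjamini-Hochberg adjustment over all 17609 genes, 4 of the 8 genes were lower (Rnaseh2a, Rnaseh2b, Dhx9 and Xrn2), 0 were higher and 4 did not pass at an adjusted p under 0.05. Of all tested genes 38.3% were called in this comparison, 21.1% as higher and 17.2% as lower. The median log2 change was -0.21 over the 8 genes and 0.03 over all genes. Against untreated Cre-positive cells, 4 genes were lower and Ddx5 was higher, where 39.2% of all genes were called (21% higher, 18.2% lower), with a median of -0.22 over the 8 genes and 0.01 over all. The 4 lower genes were the same in both comparisons, which share the 4-OHT libraries. Where 0 of the 8 genes is given for a direction, here and below, the number was also 0 at an unadjusted p under 0.05 and by DESeq2. In bulk RNA, fewer cells that make an RNA and less of that RNA per cell cannot be told apart.

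Rnaseh2a codes for the catalytic subunit of RNase H2, which also removes ribonucleotides built into DNA by mistake. It had 31.8 and 31.5 CPM after 4-OHT in Cre-positive cells, against 43.1 and 42.2 CPM after ethanol and 45.9 and 45.8 CPM without treatment. In Cre-negative cells it had 49.8 CPM in both 4-OHT libraries, against 47.6 and 48.5 CPM with ethanol and 49.7 and 46.6 CPM untreated. The Cre-positive 4-OHT libraries lay below all 10 others. Rnaseh2a fell by 0.43 on the log2 scale against ethanol (SE 0.0519, edgeR adjusted p = 1.41e-06), which left 0.742 of the ethanol level. Against untreated cells it fell by 0.53 (SE 0.0528, edgeR adjusted p = 6.84e-08).

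Rnaseh2b and Rnaseh2c code for the other subunits of RNase H2, which have no active site and hold the enzyme together. Rnaseh2b had 32.3 and 32.6 CPM after 4-OHT in Cre-positive cells, against 38.2 and 35.3 CPM after ethanol and 40.8 and 35 CPM without treatment. Its Cre-negative libraries ran from 40.7 to 45.5 CPM, without overlap with any Cre-positive library except the untreated library 7. Rnaseh2b fell by 0.18 on the log2 scale against ethanol (edgeR adjusted p = 0.0327) and by 0.23 against untreated cells (edgeR adjusted p = 0.0083). The ethanol call was lost with DESeq2 (adjusted p = 0.063) and without library 3, 11 or 12 (edgeR adjusted p = 0.142, 0.13 and 0.0917). The untreated call was lost without library 7 or 11 (edgeR adjusted p = 0.218 and 0.0502).

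Rnaseh2c had 32.2 and 33.8 CPM after 4-OHT in Cre-positive cells, against 34.6 and 31.9 CPM after ethanol and 37.5 and 36.7 CPM without treatment. The libraries overlapped with those given ethanol and not with the untreated ones. Its log2 change was -0.01 against ethanol (95% interval -0.16 to 0.14, edgeR adjusted p = 0.916) and -0.17 against untreated cells (95% interval -0.32 to -0.02, edgeR adjusted p = 0.0687). The untreated comparison passed under 6 of 16 alternative settings, among them the fit with only the compared libraries (edgeR adjusted p = 0.0162).

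The proportions of the subunit RNAs differed between groups. Rnaseh2a over Rnaseh2c, as a ratio of RPKM, was 0.373 and 0.352 after 4-OHT in Cre-positive cells, against 0.471 and 0.5 after ethanol and 0.463 and 0.471 without treatment. The Cre-negative ratios were 0.567 and 0.571 after 4-OHT, against 0.642 and 0.537 after ethanol and 0.514 and 0.5 without treatment. The Cre-positive 4-OHT libraries were below all others, and the Cre-positive ethanol and untreated libraries were at or below the Cre-negative ones. The ratio of Rnaseh2a to Rnaseh2b was 0.494 and 0.484 with 4-OHT in Cre-positive cells, and between 0.541 and 0.655 in the 10 other libraries. No test was run on the ratios, and their size, unlike their change between groups, depends on the transcript lengths used.

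**Figure D2:**
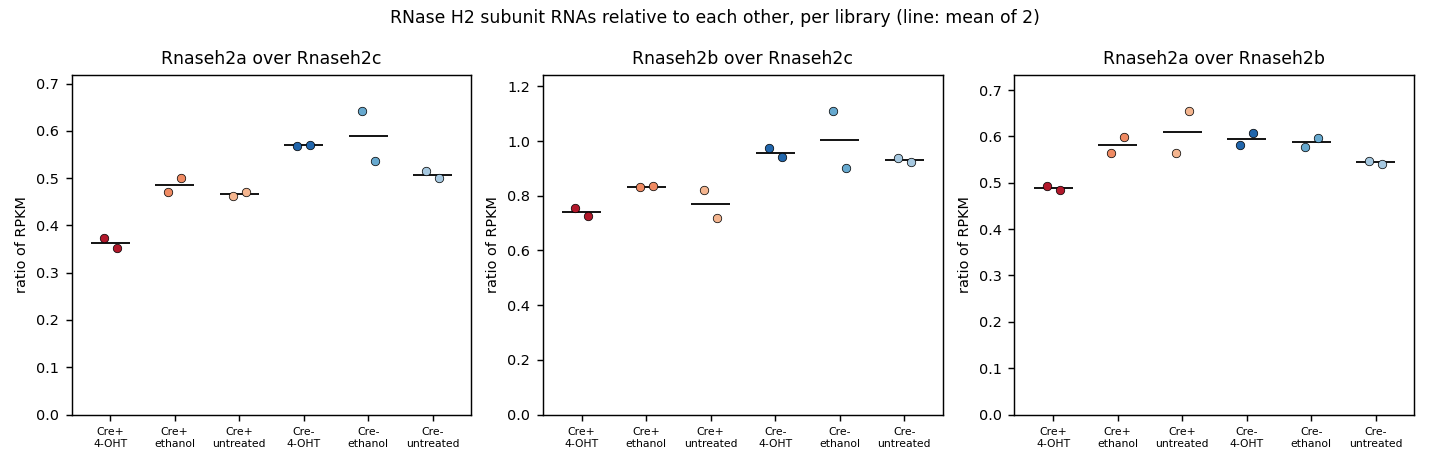
Ratio of RPKM between RNase H2 subunit RNAs (y axes, from 0) in the 6 groups (x axes), with 1 point per library and a line at the mean of 2. Both Cre-positive 4-OHT libraries are the lowest for Rnaseh2a over Rnaseh2c (0.373 and 0.352) and for Rnaseh2a over Rnaseh2b (0.494 and 0.484). For Rnaseh2b over Rnaseh2c they (0.756 and 0.726) overlap with untreated Cre-positive libraries (0.821 and 0.719).

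Rnaseh1 codes for RNase H1, which acts on longer hybrids in the nucleus and in mitochondria. It had 13.9 and 12.7 CPM after 4-OHT in Cre-positive cells, against 17.2 and 14.1 CPM after ethanol and 16.3 and 15 CPM without treatment. Its counts were the smallest of the 8 genes, from 305 to 544 per library over all groups. The Cre-positive 4-OHT libraries lay below all others, but the log2 changes did not pass: -0.23 against ethanol (95% interval -0.42 to -0.04, edgeR adjusted p = 0.0522) and -0.24 against untreated cells (95% interval -0.43 to -0.04, edgeR adjusted p = 0.0511). The ethanol comparison passed in 11 of 17 alternative settings, and with the ethanol and untreated groups joined as the control it gave -0.23 (edgeR adjusted p = 0.0222). Without library 3 the ethanol comparison gave -0.11 (edgeR adjusted p = 0.44).

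Xrn2 had 190 and 184 CPM after 4-OHT in Cre-positive cells, against 241 and 232 CPM after ethanol and 238 and 239 CPM without treatment. In Cre-negative cells it had 270 and 282 CPM with 4-OHT, against 266 and 258 CPM with ethanol and 290 and 289 CPM untreated. The 6 Cre-positive libraries lay below the 6 Cre-negative ones, and the 4-OHT libraries were the lowest of them. Xrn2 fell by 0.34 on the log2 scale against ethanol (SE 0.038, edgeR adjusted p = 5.81e-07) and by 0.35 against untreated cells (SE 0.0383, edgeR adjusted p = 2.96e-07), to 0.792 and 0.785 of those levels.

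The helicase genes differed among themselves. Dhx9, for a helicase of RNA and RNA:DNA hybrids, had 159 and 170 CPM after 4-OHT in Cre-positive cells, against 184 and 212 CPM after ethanol and 179 and 201 CPM without treatment. Its replicates stood further apart than those of Xrn2, but the groups did not overlap. Dhx9 fell by 0.27 on the log2 scale against ethanol (SE 0.0609, edgeR adjusted p = 0.00143) and by 0.21 against untreated cells (SE 0.0617, edgeR adjusted p = 0.0103). The ethanol call was lost without library 4 (log2 change -0.17, edgeR adjusted p = 0.0558). The untreated call was lost with DESeq2 (adjusted p = 0.0675) and without library 8 or 11 (edgeR adjusted p = 0.146 and 0.123).

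Aqr, for the helicase Aquarius of the spliceosome, had 109 and 105 CPM after 4-OHT in Cre-positive cells, against 112 and 110 CPM after ethanol and 109 and 110 CPM without treatment. Its log2 change of -0.05 against ethanol (95% interval -0.13 to 0.03, edgeR adjusted p = 0.35) and of -0.03 against untreated cells (95% interval -0.11 to 0.05, edgeR adjusted p = 0.596) did not pass. Ddx5, for a DEAD-box helicase, had 581 and 608 CPM after 4-OHT in Cre-positive cells, against 575 and 593 CPM after ethanol and 534 and 533 CPM without treatment. Ddx5 overlapped with ethanol (log2 change 0.02, 95% interval -0.06 to 0.11, edgeR adjusted p = 0.671). It rose by 0.16 against untreated cells (edgeR adjusted p = 0.00373), a call that was lost without library 12 (edgeR adjusted p = 0.0617).

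Cre-negative cells given the same agents show how the genes stood with 4-OHT and no Cre. With 4-OHT against ethanol, Dhx9 and Ddx5 rose in Cre-negative cells and 0 of the 8 genes fell, where 5.99% of all genes were called (3.33% higher, 2.65% lower). Dhx9 had 203 and 201 CPM with 4-OHT, against 169 and 162 CPM with ethanol and 194 and 216 CPM untreated. It rose by 0.29 against ethanol (edgeR adjusted p = 0.00691) and stood at -0.02 against untreated cells (95% interval -0.15 to 0.10, edgeR adjusted p = 0.85). The ethanol libraries were the low ones: Dhx9 fell by 0.31 on the log2 scale with ethanol against untreated Cre-negative cells (edgeR adjusted p = 0.000717). The rise with 4-OHT was lost without library 5, 6 or 10 (edgeR adjusted p = 0.0808, 0.0549 and 0.132).

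Ddx5 had 690 and 639 CPM in the Cre-negative 4-OHT libraries, against 574 and 587 CPM with ethanol and 578 and 565 CPM untreated. Both 4-OHT libraries lay above the 10 others in the study. Ddx5 rose by 0.20 against ethanol (edgeR adjusted p = 0.00483), a call that was lost without library 5 or 9 (edgeR adjusted p = 0.174 and 0.086). Against untreated Cre-negative cells it rose by 0.22 (edgeR adjusted p = 0.000406) and was the only member that passed, where 19.2% of all genes were called (10.1% higher, 9.14% lower). Rnaseh2a, which fell in Cre-positive cells, stood at 0.05 against either Cre-negative group (95% intervals -0.05 to 0.16 and -0.06 to 0.16), and Xrn2 at 0.07 against ethanol and -0.07 against untreated cells (95% intervals -0.01 to 0.15 and -0.15 to 0.01).

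The difference between the 4-OHT effects, Cre-positive minus Cre-negative, was then tested itself. With ethanol as the baseline it passed for 4 of the 8 genes, all of them lower in Cre-positive cells, where 28.3% of all genes were called (14.5% higher, 13.8% lower). It was -0.48 for Rnaseh2a (SE 0.0723, edgeR adjusted p = 3.98e-05), -0.56 for Dhx9 (SE 0.0866, edgeR adjusted p = 6.3e-05) and -0.41 for Xrn2 (SE 0.0535, edgeR adjusted p = 8.64e-06). For Ddx5 it was -0.17 (SE 0.0563, edgeR adjusted p = 0.0271), made up of a change of 0.02 with Cre and of 0.20 without, and it did not pass without library 4, 5, 9 or 11 (edgeR adjusted p = 0.0859, 0.133, 0.0764 and 0.137). Rnaseh2b stood at -0.21 (95% interval -0.41 to -0.02, edgeR adjusted p = 0.0871). The intervals of Rnaseh1, Rnaseh2c and Aqr reached from -0.45 to 0.08, -0.31 to 0.11 and -0.23 to 0.01.

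With untreated cells as the baseline, the difference passed for Rnaseh2a and Xrn2 alone, where 23.8% of all genes were called (12% higher, 11.7% lower). It was -0.58 for Rnaseh2a (SE 0.0732, edgeR adjusted p = 5.67e-06) and -0.28 for Xrn2 (SE 0.0537, edgeR adjusted p = 0.000591). For Dhx9 it was -0.18 (95% interval -0.37 to -0.00, edgeR adjusted p = 0.137), with 164 ± 8.29 CPM in Cre-positive 4-OHT cells against 190 ± 15 CPM untreated, and 202 ± 0.738 CPM in Cre-negative 4-OHT cells against 205 ± 15.8 CPM untreated (SD, n = 2 each). The Dhx9 difference was larger with the ethanol baseline, in which the Cre-negative ethanol libraries were low. The calls of Rnaseh2a and Xrn2 against both baselines held under all 16 alternatives, the Rnaseh2a difference from ethanol lying between -0.51 and -0.47 and that of Xrn2 between -0.45 and -0.38.

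**Figure D3:**
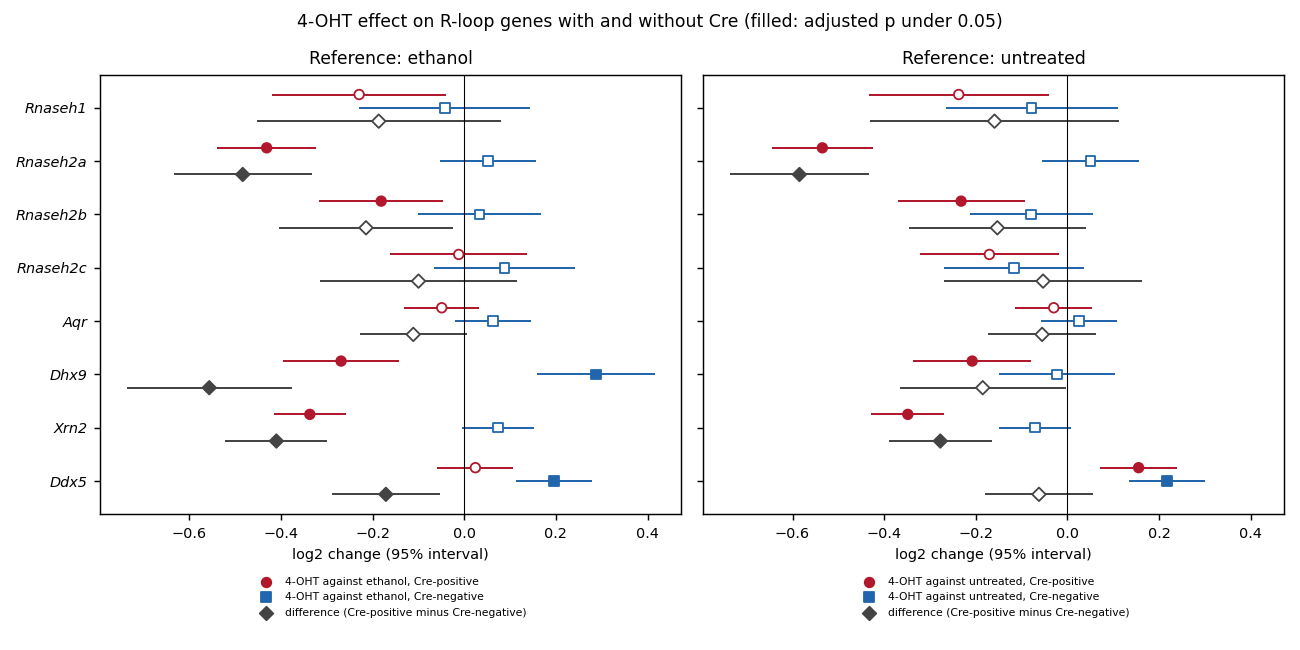
Log2 change with 4-OHT (x axes, with 95% intervals) of each gene (rows) in Cre-positive cells (circles), in Cre-negative cells (squares) and the difference between them (diamonds), against ethanol (left) and untreated cells (right). Filled symbols passed at an adjusted p under 0.05, and Rnaseh2a and Xrn2 have filled diamonds on both sides, at -0.48 and -0.41 against ethanol and at -0.58 and -0.28 against untreated cells.

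Cells also differed before 4-OHT was given. In untreated cells, Rnaseh2b, Xrn2 and Ddx5 were lower in Cre-positive than in Cre-negative cells and 0 were higher, where 49% of all genes were called (24.4% higher, 24.6% lower). Xrn2 was at 238 ± 0.42 CPM in Cre-positive and 290 ± 0.704 CPM in Cre-negative untreated cells (SD, n = 2 each; log2 change -0.28, edgeR adjusted p = 2.14e-06). Rnaseh2b was at -0.22 (edgeR adjusted p = 0.00902; lost without library 1 or 8, with adjusted p = 0.0755 and 0.195). Ddx5 was at -0.10 (edgeR adjusted p = 0.0474, and up to 0.221 in the alternatives). The targets were lower as well, Nabp1 by -0.74 and Nabp2 by -0.32 on the log2 scale (edgeR adjusted p = 9.39e-08 and 0.0017). These lines differ in Cre, in their cells of origin and in how the Ssb1 genotype is written, and these cannot be told apart.

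Cells given ethanol were also set against untreated ones, and any effect of ethanol cannot be told apart from that of 5 days of treatment. In Cre-positive cells, ethanol against untreated raised Ddx5 by 0.13 (edgeR adjusted p = 0.0303; lost without library 4, 7 or 8, and with only the compared libraries at adjusted p = 0.0612), where 14.9% of all genes were called (8.11% higher, 6.84% lower). In Cre-negative cells Rnaseh2c, Dhx9 and Xrn2 fell and 0 rose, where 24.5% of all genes were called (12.5% higher, 12% lower). Xrn2 fell by 0.14 on the log2 scale (edgeR adjusted p = 0.0073; lost without library 1 or 10, at 0.0527 and 0.094). Rnaseh2c fell by 0.21 on the log2 scale (edgeR adjusted p = 0.0472), with 28 and 34.1 CPM with ethanol against 36.6 and 35.2 CPM untreated, and without the low library 9 the change was -0.06 (edgeR adjusted p = 0.617). Its call was kept in 3 of 16 alternatives.

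Other factors known to prevent or remove R-loops were read as a list of 30 genes, all of which passed the filter. They include the THO complex, topoisomerase I, RPA, the XPF and XPG nucleases (Ercc4 and Ercc5) and BRCA proteins. In Cre-positive cells 18 of the 30 fell and 2 rose with 4-OHT against ethanol (median -0.18), and 17 fell and 2 rose against untreated cells (median -0.17). Among all genes 17.2% fell and 21.1% rose against ethanol, and 18.2% fell and 21% rose against untreated cells. In Cre-negative cells 1 fell and 2 rose against ethanol, and 1 fell and 5 rose against untreated cells. Among all genes 2.65% fell and 3.33% rose there against ethanol, and 9.14% fell and 10.1% rose against untreated cells. The difference between genotypes passed as lower for 10 and as higher for 1 with ethanol (median -0.15), and as lower for 17 and higher for 2 with untreated cells (median -0.26). Among all genes it was lower for 13.8% and higher for 14.5% with ethanol, and for 11.7% and 12% with untreated cells. Medians over all genes were between 0.00 and 0.03 in these comparisons.

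Brca2, for a mediator of homologous recombination, had 39.3 and 42.9 CPM after 4-OHT in Cre-positive cells, against 51.6 and 60.2 CPM with ethanol, and fell by 0.45 on the log2 scale (edgeR adjusted p = 0.000254). Wrn, for the Werner helicase, fell by 0.39 (edgeR adjusted p = 2.01e-06), and Ddx1 and Ddx21, for DEAD-box helicases, fell by 0.34 and 0.33 (edgeR adjusted p = 1.01e-06 and 4.55e-07). Ercc5 and Rtel1, a nuclease and a helicase gene of DNA repair and telomeres, fell by 0.33 and 0.32 (edgeR adjusted p = 0.000577 and 1.31e-05). These 6 fell against untreated cells too, by 0.15 (Ddx21) to 0.47 (Ddx1) on the log2 scale. In Cre-negative cells Rtel1 averaged 125 CPM with 4-OHT, 140 CPM with ethanol and 116 CPM untreated, and Ercc5 27.9, 31 and 24.9 CPM. In the same order Wrn averaged 62.8, 67.1 and 70.3 CPM, Ddx1 226, 225 and 237, Ddx21 648, 596 and 637, and Brca2 80, 75.4 and 59.5 CPM. The 2 genes that rose against ethanol in Cre-positive cells, Alyref and Ddx23, were named after their values were seen. The mRNA export adaptor gene Alyref rose by 0.28 (edgeR adjusted p = 1.94e-05) and the splicing helicase gene Ddx23 by 0.11 (edgeR adjusted p = 0.0457). Ddx23 stood at 0.03 against untreated cells (edgeR adjusted p = 0.616). Over the alternatives the number that fell against ethanol lay between 14 (without library 12) and 20, and the number that rose was 1 or 2.

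**Figure D4:**
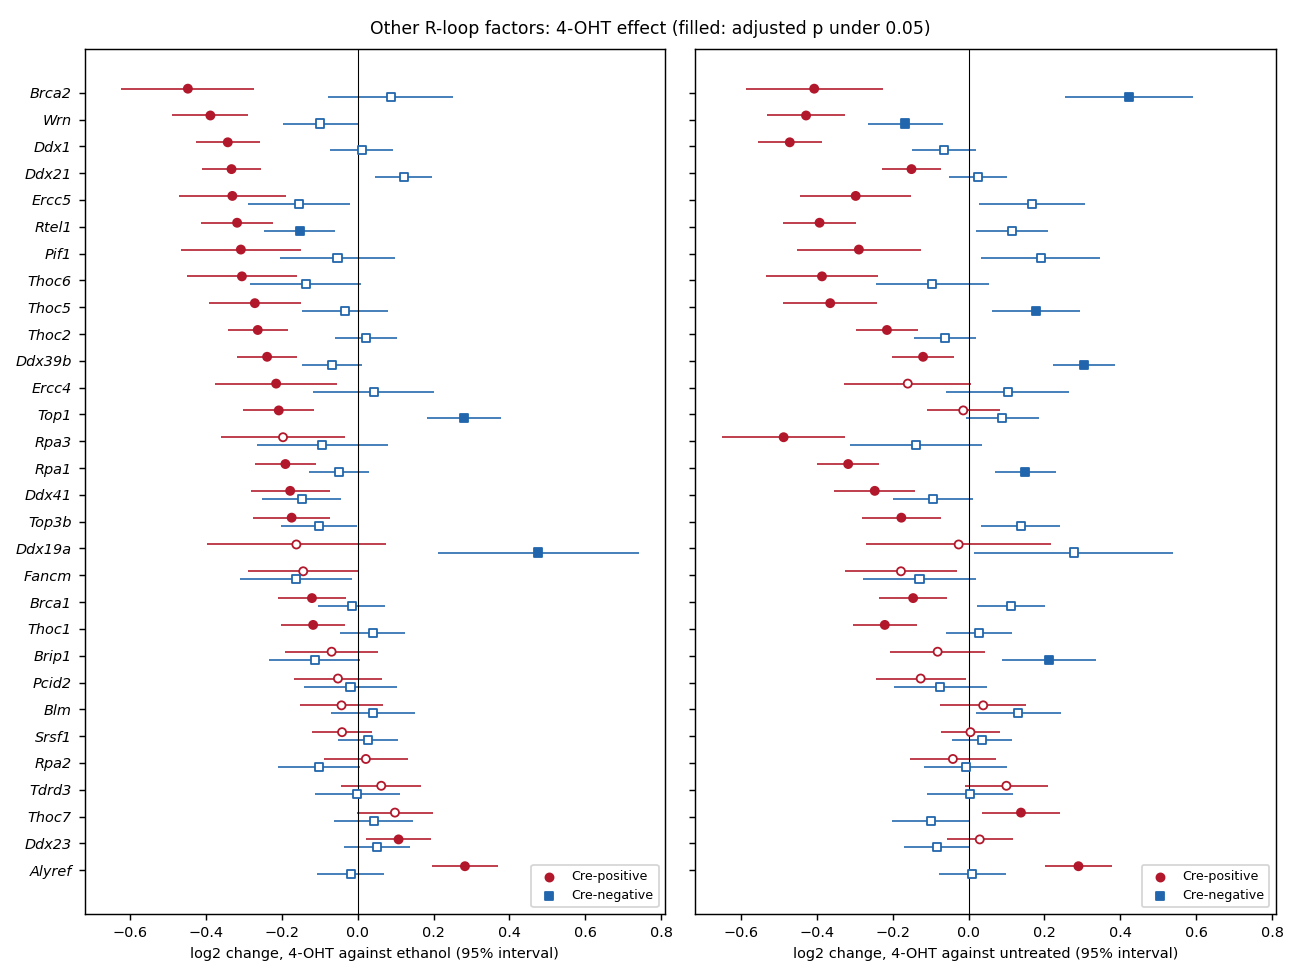
Log2 change with 4-OHT (x axes, with 95% intervals) of 30 other R-loop factors (rows), in Cre-positive (circles) and Cre-negative cells (squares), against ethanol (left) and untreated cells (right). Filled symbols passed at an adjusted p under 0.05, and 18 of the 20 filled circles against ethanol lie left of 0, with Brca2 the farthest left at -0.45.

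Genes that work with Xrn2 were read as a list of 5. In Cre-positive cells given 4-OHT, 4 of 5 fell and 1 rose against ethanol, where 17.2% of all genes were lower and 21.1% higher, and the counts were the same against untreated cells (18.2% of all genes lower, 21% higher). Over the alternatives 3 or 4 of the 5 fell and 0 or 1 rose. Cdkn2aipnl, whose product binds XRN2, fell by 0.38 on the log2 scale against ethanol (edgeR adjusted p = 2.47e-06), and Pcf11, of the cleavage machinery that ends transcripts, by 0.33 (edgeR adjusted p = 1.36e-06). Nkrf fell by 0.29 and Cpsf3, the nuclease that cuts pre-mRNA at the poly(A) site, by 0.22 (edgeR adjusted p = 0.0159 and 0.00117). The difference between genotypes with ethanol passed for these 4, from -0.38 (Nkrf) to -0.27 (Cpsf3), where 13.8% of all genes were lower. Cdkn2aip, whose product also binds XRN2, rose by 0.22 (edgeR adjusted p = 0.00799). Xrn1, the cytoplasmic relative of Xrn2, had 76.4 and 74.4 CPM after 4-OHT in Cre-positive cells, against 94.4 and 102 CPM with ethanol, and fell by 0.38 on the log2 scale (edgeR adjusted p = 4.29e-06; difference between genotypes -0.45, adjusted p = 6.59e-05).

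Aquarius works in the spliceosome with the other members of the intron-binding complex. Of Xab2, Isy1, Zfp830 and Ppie, 1 rose and 0 fell with 4-OHT against ethanol in Cre-positive cells. Of all genes 21.1% were higher and 17.2% lower there. Against untreated cells 1 rose and 1 fell (21% of all genes higher, 18.2% lower). Zfp830 rose by 0.26 against ethanol (edgeR adjusted p = 0.0079), a call not made by DESeq2, and by 0.45 against untreated cells (edgeR adjusted p = 8.73e-05). Isy1 stood at -0.18 against ethanol (edgeR adjusted p = 0.0599, under 0.05 with RLE size factors) and fell by 0.20 on the log2 scale against untreated cells (edgeR adjusted p = 0.0463, not called by DESeq2). The difference between genotypes passed for 0 of 4 by edgeR and by DESeq2 against either baseline. Of all genes 28.3% (ethanol) and 23.8% (untreated) were called there. At an unadjusted p under 0.05 there were 0 for ethanol and 2 for untreated cells (Isy1 -0.28 and Zfp830 0.28). Ddx17, the closest relative of Ddx5, stood at 0.03 against ethanol (edgeR adjusted p = 0.62).

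Changes of the genes of RNase H2 subunits in humans cause Aicardi-Goutieres syndrome, an interferon disease, as do changes of Trex1, Samhd1, Adar, Ifih1 and Lsm11. Of these 5 others, 4 were tested. Trex1 was listed at 0 in all 12 libraries, and whether its reads were counted under another symbol was not tested. In Cre-positive cells 2 rose and 0 fell with 4-OHT against ethanol, where 21.1% of all genes were higher and 17.2% lower. The RNA sensor gene Ifih1 rose by 0.87 (edgeR adjusted p = 1.94e-06) and the RNA editing gene Adar by 0.21 (edgeR adjusted p = 0.0205). In Cre-negative cells, where 3.33% of all genes were higher, Ifih1 rose by 0.56 (edgeR adjusted p = 0.00164). Samhd1, for a dNTP hydrolase, rose there by 0.25 (edgeR adjusted p = 0.00166). Against untreated Cre-positive cells all 4 tested genes rose with 4-OHT (21% of all genes were higher), a count that was 2 without library 12. In Cre-negative cells 2 rose against untreated cells (10.1% of all genes were higher). Without 4-OHT, ethanol against untreated gave 2 higher and 0 lower in Cre-positive cells (8.11% of all genes higher, 6.84% lower). In Cre-negative cells it gave 2 higher and 1 lower (12.5% of all genes higher, 12% lower). Ifih1 averaged 4.37 CPM untreated, 7.76 CPM with ethanol and 14.1 CPM with 4-OHT in Cre-positive cells, and 4.2, 12.3 and 18.2 CPM in Cre-negative cells. In the same order Adar averaged 28.7, 38.2 and 44.3 CPM in Cre-positive cells, and 30.7, 49.3 and 57 CPM in Cre-negative cells. Its 4-OHT change against ethanol did not pass in Cre-negative cells, where the ethanol libraries lay apart (SD 5.95 CPM). Against ethanol the number that rose was 1 to 3 over the alternatives in either genotype. The difference between genotypes with ethanol passed for 0 of the 4 by edgeR and by DESeq2, where 28.3% of all genes were called by edgeR. Of the 4, 2 had an unadjusted p under 0.05, Ifih1 (0.31, edgeR adjusted p = 0.124) and Samhd1 (-0.15, edgeR adjusted p = 0.0851).

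Growth markers and the mitochondrial share of counts also differed between groups. Of 6 genes of proliferating cells, a list added after values were seen, Mki67 (-0.35), Top2a (-0.26) and Mcm2 (-0.13) fell against ethanol in Cre-positive cells. Of all genes 17.2% were lower there. Pcna, Mcm5 and Ccnb1 lay between -0.00 and 0.01 and did not pass. The difference between genotypes with ethanol passed as lower for 2 of the 6, Mki67 (-0.55) and Top2a (-0.30), where 13.8% of all genes were lower. Against untreated Cre-positive cells 4 of the 6 were lower and 0 higher, where 18.2% of all genes were lower. Mcm5 averaged 284 CPM with 4-OHT, 284 CPM with ethanol and 328 CPM untreated in these cells. With untreated cells the difference passed as lower for 3 of the 6 and as higher for 0, where 11.7% of all genes were lower. Mitochondrial genes held 1.83% and 1.92% of counts after 4-OHT in Cre-positive cells, against 1.49% and 1.74% with ethanol and 1.47% in both untreated libraries. In Cre-negative cells they held 2.22% and 2% with 4-OHT, against 1.95% and 1.9% with ethanol and 1.69% and 1.62% untreated. The part of either in the changes of the R-loop genes was not tested.

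Some members share exon sequence with neighbours, and the sources used here do not say whether counting used the strand. In GENCODE M21 the exons of Rnaseh2a share 177 bases (5.04%) with Prdx2 on the opposite strand and 339 bases with the predicted gene Gm49661 on the same strand. Prdx2 rose by 0.14 against ethanol in Cre-positive cells (edgeR adjusted p = 0.011). Rnaseh2c shares 426 bases (24.8% of its exons) with Kat5 on the opposite strand, which stood at 0.11 (edgeR adjusted p = 0.134), so reads of the pair may not be told apart there. Rnaseh2b shares 66 bases (1.06%) with Dleu7, which did not pass the filter. Prdx2 and Kat5 both passed as higher in the difference between genotypes with ethanol, where 14.5% of all genes were higher. Both were also higher in untreated Cre-positive than Cre-negative cells (24.4% of all genes higher). Kat5 averaged 42.7 CPM with 4-OHT and 39.6 CPM with ethanol in Cre-positive cells, and 32.7 and 37.4 CPM in Cre-negative cells.

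For each member whose 4-OHT effect differed between genotypes, the 3 genes with the most similar profile over the 12 libraries were found among 10833 genes, as the smallest root mean square difference of centred log2 CPM. For Rnaseh2a they were Snx5 (0.0392), Srp72 (0.0496) and Srpk1 (0.0498), against a median of 0.276 over all candidates. For Xrn2 they were Bop1 (0.0271), Dazap1 (0.0406) and Wdr5 (0.0419), with a median of 0.26. Those of Dhx9 were Sos1, Gatad2b and Bicd1 (0.0579 to 0.0596), and those of Ddx5 were Ppp1cb, Rraga and Copz2 (0.0426 to 0.0467). No other member was among these 12 genes.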

How the data were processed

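The authors deposited whole-number expected counts per gene symbol for 12 libraries of ribosome-depleted total RNA (stranded kit, per the labels' protocols). Tools named in the submitters' processing notes are RSEM 1.2.30, STAR 2.5.2a, cutadapt 1.11 and edgeR, with the GRCm38 build; the sources used here do not give the annotation or strand setting. For testing, edgeR 4.0.16 was run under R 4.3.3: filterByExpr, TMM scaling, 1 mean per group, and 2-sided quasi-likelihood tests over all 12 libraries (biological coefficient of variation 3.44%, 6 residual and 14.6 prior degrees of freedom). There were 9 comparisons, each adjusted by Benjamini-Hochberg over all tested genes, threshold 0.05. Standard errors and 95% intervals of log2 changes come from the F statistic. RPKM divides CPM by the length of the longest principal transcript in GENCODE M21, which also gave exon overlaps. Promoters are from RefSeq. Chi-square per degree of freedom between the 2 libraries of a group was 2.52 to 5.03, so none was treated as a copy of another. Alternatives were DESeq2 1.42.0, RLE size factors, no filter, only the compared libraries, a joint reference, and leaving out each library.

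The members and gene lists were chosen with earlier results of these data known. All 8 members are named. From other lists, the rule was to name genes that passed in the ethanol difference or in both Cre-positive 4-OHT comparisons. It allowed at most 6 per list, by their change against ethanol in Cre-positive cells. Results of Alyref, Ddx23, Isy1, Ddx17 and Samhd1 are given outside this rule, as are those of the proliferation genes and overlapping neighbours. The code was tested on simulated counts. A member of the list of other R-loop factors is not reported here.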

Additional observations from a re-analysis of the deposited data

Results flagged for a closer look

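For 4 of the 8 genes the effect of 4-OHT against ethanol, and for 2 of them also against untreated cells, differed between Cre-positive and Cre-negative cells by a test of the difference itself. The share of all tested genes called was 28.3% with ethanol and 23.8% with untreated cells. The 25% of members called with untreated cells was thus close to the share of all genes. With ethanol as the baseline, the difference (Cre-positive minus Cre-negative, log2) was -0.48 for Rnaseh2a, -0.56 for Dhx9, -0.41 for Xrn2 and -0.17 for Ddx5 (edgeR adjusted p = 3.98e-05, 6.3e-05, 8.64e-06 and 0.0271). With untreated cells as the baseline, it was -0.58 for Rnaseh2a and -0.28 for Xrn2 (edgeR adjusted p = 5.67e-06 and 0.000591), while Dhx9 at -0.18 and Ddx5 at -0.06 did not pass (edgeR adjusted p = 0.137 and 0.485). The Ddx5 difference from ethanol was lost without library 4, 5, 9 or 11. The Cre-positive fall made up most of the Rnaseh2a and Xrn2 differences against ethanol (-0.43 of -0.48 and -0.34 of -0.41). For Dhx9 a Cre-positive fall (-0.27) and a Cre-negative rise (0.29) made up similar shares, but the Cre-negative value was -0.02 against untreated cells (edgeR adjusted p = 0.85) and ethanol against untreated gave -0.31. That rise was also lost without library 5, 6 or 10. For Ddx5 the Cre-negative rise (0.20) stood against 0.02 in Cre-positive cells.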

How the results depend on the processing

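Over the 8 genes and 9 comparisons, 1040 of the 1160 refitted log2 changes stayed on the same side of the threshold in the same direction. The threshold was crossed by 87 and the direction turned in 33, which are given here as log2 changes and of which 0 had passed. Against ethanol in Cre-positive cells, Ddx5 gave -2e-04 with only the compared libraries. Against untreated cells, ethanol gave for Rnaseh1 in Cre-positive cells 0.0061 (DESeq2), 0.0018 (RLE size factors) and 0.0045 (no filter), for Xrn2 0.0021 (no filter), and for Rnaseh2a in Cre-negative cells 0.0013, 4e-04 and 0.0032 in the same order of settings. Leaving out 1 library at a time gave, for 4-OHT against ethanol in Cre-positive cells, -0.0725 to 0.0229 for Rnaseh2c and -0.0231 to 0.0553 for Ddx5. In Cre-negative cells 4-OHT gave against ethanol -0.1263 to 0.0078 for Rnaseh1, -0.0048 to 0.0547 for Rnaseh2b and -0.0545 to 0.2332 for Rnaseh2c, and against untreated cells -0.0017 to 0.0963 for Rnaseh2a, -0.0058 to 0.0509 for Aqr and -0.097 to 0.055 for Dhx9. The ethanol difference between genotypes lay between -0.2654 and 0.0222 for Rnaseh2c. Ethanol against untreated cells gave -0.1477 to 0.1321 for Rnaseh1, -0.1466 to 0.072 for Rnaseh2b, -0.0411 to 0.1623 for Dhx9 and -0.0314 to 0.0159 for Xrn2 in Cre-positive cells, and -0.0443 to 0.0536 for Rnaseh2a in Cre-negative cells. The number of the 8 genes called, with 1 library left out, was 3 to 5 for 4-OHT against ethanol in Cre-positive cells and 3 (without library 11) to 7 against untreated cells. It was 0 (without library 5) to 2 for 4-OHT against ethanol in Cre-negative cells, 0 (without library 4, 7 or 8) to 1 for ethanol in Cre-positive cells, 1 (without library 1) to 3 for ethanol in Cre-negative cells, and also 0 for ethanol in Cre-positive cells with only the compared libraries. All genes called in Cre-negative cells numbered 301 (without library 5) to 1277 for 4-OHT against ethanol (609, 442 and 344 without library 6, 9 or 10, and 1609 with only the compared libraries), against 1054 as reported. For 4-OHT against untreated cells they numbered 2164 (without library 5; 2238 without library 2) to 3673. For ethanol against untreated cells they numbered 1423 (without library 4; 1425 and 1521 without library 7 or 8) to 2619 in Cre-positive cells and 2759 (without library 2; 2805 without library 10) to 4531 in Cre-negative cells. With all 12 libraries in the fit, 4-OHT in Cre-positive cells called 6736 genes (38.3%) against ethanol and 6901 (39.2%) against untreated cells. With only the compared libraries these totals were 6160 and 7023. With ethanol and untreated libraries joined, 4-OHT in Cre-positive cells called 7630 genes, 6 of the 8 among them. The cause of these shifts was not tested. No paired analysis was possible because library numbers 1 to 12 are not shared between groups. With 2 libraries a group the precision is limited, and the log2 changes of Aqr had 95% intervals that include 0 in all 9 comparisons.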
